A study of Homo sapiens with 14 samples.

Results

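SCN3A and the other voltage-gated sodium channel genes were followed across the 14 arrays of an SRC1 knockdown experiment in LY2 breast cancer cells. The set held 7 genes: the alpha subunits SCN3A, SCN1A, SCN2A, SCN8A and SCN9A and the beta subunits SCN2B and SCN4B. They were represented by 18 of the 54613 probe sets of the Affymetrix HG-U133 Plus 2.0 array. All probe sets annotated to these genes alone were taken, whatever their signal. The genes themselves were selected on an earlier look at these data, in which SCN3A stood far higher with SRC1 siRNA, so the knockdown values of the 7 genes are given below as a description with no test.

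LY2 is an endocrine-resistant line derived from MCF-7 breast cancer cells, and the experiment concerns the genes regulated by SRC-1, a coactivator of nuclear receptors encoded by NCOA1. All cells had been kept in 10 nM 4-hydroxytamoxifen, the active form of tamoxifen, and then grown for 72 h without it in medium free of phenol red with charcoal-stripped serum. They were transfected with 40 nM siRNA and after 24 h received 100 nM 4-hydroxytamoxifen or ethanol vehicle for 2 h. All arrays come from this line. The 4 groups were SRC1 siRNA with tamoxifen (2 arrays, replicates 1 and 3), SRC1 siRNA untreated (4 arrays), control siRNA with tamoxifen (4 arrays) and control siRNA untreated (4 arrays), where the control siRNA was a scrambled sequence.

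Voltage-gated sodium channels are membrane proteins whose pore-forming alpha subunit opens when the membrane depolarises and lets sodium into the cell, which starts the action potential in neurons and muscle. Beta subunits are single-span membrane proteins that adjust the gating and the surface level of the alpha subunit and also act in cell adhesion. SCN3A encodes an alpha subunit best known from the developing brain, SCN1A, SCN2A and SCN8A encode the main alpha subunits of the mature central nervous system, and SCN9A encodes one of sensory neurons. Sodium channel subunits have also been described in carcinoma cells, breast cancer included.

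Promoter windows of 300 bases, 250 before to 50 after an annotated start, were available from RefSeq (GRCh38.p14) for 6 of the 7 genes, 8 windows in all. SCN3A had none. Those of SCN1A and SCN8A are shown because these were the genes besides SCN3A with a probe set above the median signal. The SCN8A window lies on the plus strand and both SCN1A windows on the minus strand, each read 5′ to 3′ along its gene, and capitals mark CpG dinucleotides.
SCN1A, chr2:166127971-166128270: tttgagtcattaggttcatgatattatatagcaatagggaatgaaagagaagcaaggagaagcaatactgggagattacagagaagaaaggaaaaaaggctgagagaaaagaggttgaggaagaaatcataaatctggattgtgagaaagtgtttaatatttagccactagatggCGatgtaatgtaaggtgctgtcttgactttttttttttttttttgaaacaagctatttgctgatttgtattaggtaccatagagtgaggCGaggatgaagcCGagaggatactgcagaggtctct
SCN1A, chr2:166149112-166149411: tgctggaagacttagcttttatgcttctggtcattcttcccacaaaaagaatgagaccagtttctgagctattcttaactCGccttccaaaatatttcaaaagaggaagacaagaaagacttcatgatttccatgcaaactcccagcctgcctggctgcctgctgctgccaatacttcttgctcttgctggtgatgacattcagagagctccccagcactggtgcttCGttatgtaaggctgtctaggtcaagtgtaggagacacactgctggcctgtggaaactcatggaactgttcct
SCN8A, chr12:51590983-51591282: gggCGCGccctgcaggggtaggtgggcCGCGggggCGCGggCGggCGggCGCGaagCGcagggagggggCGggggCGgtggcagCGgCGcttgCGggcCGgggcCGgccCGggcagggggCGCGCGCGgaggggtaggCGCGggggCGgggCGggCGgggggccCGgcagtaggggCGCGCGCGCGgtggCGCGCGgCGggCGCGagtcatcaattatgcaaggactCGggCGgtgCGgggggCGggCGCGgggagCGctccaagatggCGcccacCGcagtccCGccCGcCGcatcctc
The SCN8A window held 52 CpGs at 84.0% GC, a CpG count at the 99.3rd percentile of the 35116 windows in the table. The SCN1A windows held 3 and 2 CpGs, against a median of 14 over all windows. Of the other members, SCN9A had 28 CpGs, SCN4B 18 and SCN2B 1, and the SCN2A windows had 2 and 1. The letters TTCAGCACC, which form the left part of the binding site of REST, a repressor of neuronal genes, were the only motif searched, on both strands. They were in 0 of the 8 member windows and in 0.376% of all windows. With letters this rare, 8 windows are too few for anything to be read from the 0.

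NCOA1, the siRNA target, was lower with SRC1 siRNA on each of its 4 probe sets. Averaged over them, its log2 signal was 7.74 ± 0.25 in SRC1 siRNA tamoxifen cells (SD, n = 2) and 7.70 ± 0.36 in SRC1 siRNA untreated cells (n = 4). It was 9.06 ± 0.18 in control siRNA tamoxifen cells and 9.0 ± 0.25 in control siRNA untreated cells (n = 4 each). The difference between siRNAs was -1.32 in tamoxifen-treated cells and -1.30 in untreated cells, and the highest adjusted p of the 4 probe sets was 0.00589 and 0.00184 (limma). Without replicate 3 of the SRC1 siRNA tamoxifen group, the first of these became -1.15 with a highest adjusted p of 0.0555. All 9 luminal epithelial markers measured, ESR1 and GATA3 among them, lay above the median signal in every group. Of the 10 neuronal markers, 2 did, in every group, and of the 7 fibroblast markers, 1. Of the 5 immune markers, 2 did in SRC1 siRNA tamoxifen cells and 1 in SRC1 siRNA untreated cells, against 0 in both control siRNA groups, and their summed signal was 5.11 to 5.57 and 5.01 to 5.16, against 4.83 to 4.96 and 4.92 to 5.06 on the log2 scale. Of the 6 endothelial markers, 1 did in SRC1 siRNA untreated cells and 0 in the other groups. The part of such cells in the results below was not tested. In such bulk samples, fewer cells of a kind and less RNA per cell cannot be told apart. Array medians lay between 3.44 and 3.51 on the log2 scale. Replicate 4 of the SRC1 siRNA untreated group stood apart on SCN3A, SCN1A and the interferon-induced gene IFIT1, and the values without the replicate 4 arrays are given where they differ. Arrays of the same number deviated from their group means in opposite directions in all 18 pairs, and adding the number to the fit lowered the counts of passing probe sets, as given at the end.

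SCN3A was high on all 6 SRC1 siRNA arrays and below the array's median on all 8 control siRNA arrays. Its brighter probe set, 210432_s_at, had log2 signals of 7.68 and 6.93 in SRC1 siRNA tamoxifen cells. In SRC1 siRNA untreated cells it had 8.11, 7.13, 7.11 and 4.75, in the order of replicates 1 to 4. In control siRNA tamoxifen cells it had 1.14, 2.31, 1.99 and 2.75, and in control siRNA untreated cells 1.43, 1.46, 2.08 and 2.88. The SRC1 siRNA arrays did not overlap with the control siRNA arrays, and replicate 4 of the SRC1 siRNA untreated group was the lowest of the 6. The group means were 7.31 ± 0.53 in SRC1 siRNA tamoxifen cells (SD, n = 2), 6.77 ± 1.43 in SRC1 siRNA untreated cells, 2.05 ± 0.68 in control siRNA tamoxifen cells and 1.96 ± 0.68 in control siRNA untreated cells (n = 4 each).

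**Figure D1:**
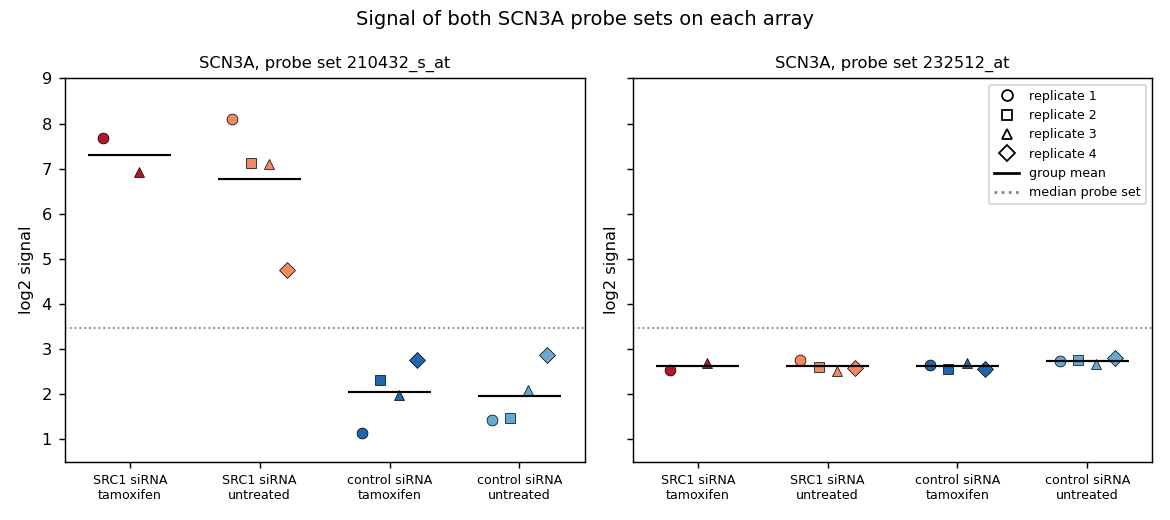
Log2 signal (vertical axis) of both SCN3A probe sets on each array, with the 4 groups along the horizontal axis, a marker shape for each replicate number, a black line for the group mean and a dotted line for the median of all probe set means (3.47). On 210432_s_at the 6 SRC1 siRNA arrays lie between 4.75 and 8.11 and the 8 control siRNA arrays between 1.14 and 2.88; on 232512_at all 14 arrays lie between 2.52 and 2.80.

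Placed among all probe sets of its own array, SCN3A moved across most of the range. It stood at the 74.4th and 70.7th percentile in SRC1 siRNA tamoxifen cells and between the 59.9th and 76.4th in SRC1 siRNA untreated cells. In control siRNA tamoxifen cells it lay between the 0.0732nd and 39.4th percentile, and in control siRNA untreated cells between the 1.64th and 41.9th. Every SRC1 siRNA array thus had SCN3A above its median, and every control siRNA array had it below. The difference between siRNAs was 5.26 in tamoxifen-treated cells and 4.81 in untreated cells, on the log2 scale. With control siRNA signals of 1.14, 1.43 and 1.46 near the first percentile of all probe set means (1.41), these are differences of signal and give no fold of RNA. Leaving out all replicate 4 arrays, the differences were 5.50 and 5.79.

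The size of the SCN3A difference varied between replicate numbers. In untreated cells it was 6.68, 5.66, 5.03 and 1.87 between arrays numbered 1, 2, 3 and 4. In tamoxifen-treated cells it was 6.55 for number 1 and 4.94 for number 3. Number 1 thus had the widest gap in both treatments, and number 4 the narrowest where it was measured. The narrow gap of number 4 came from both sides, with the lowest SRC1 siRNA signal and the highest control siRNA signal of the untreated cells.

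The second SCN3A probe set, 232512_at, showed none of this. It had 2.53 and 2.70 in SRC1 siRNA tamoxifen cells, 2.76, 2.59, 2.52 and 2.57 in SRC1 siRNA untreated cells, 2.65, 2.56, 2.69 and 2.55 in control siRNA tamoxifen cells, and 2.72, 2.75, 2.66 and 2.80 in control siRNA untreated cells. All 14 values lay below the median signal and the groups overlapped. Its differences between siRNAs were -0.00281 in tamoxifen-treated cells and -0.12 in untreated cells. The probe sets of SCN3A therefore disagreed, and which transcripts each one detects was not analysed here.

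SCN1A, the alpha subunit best known for its role in inhibitory neurons, had 1 probe set well above the median signal, and this one varied more between arrays than any other member probe set besides that of SCN3A. This probe set, 210383_at, had 6.40 and 6.5 in SRC1 siRNA tamoxifen cells and 6.19, 5.77, 6.01 and 7.02 in SRC1 siRNA untreated cells. It had 7.73, 6.94, 6.90 and 6.26 in control siRNA tamoxifen cells and 7.32, 7.21, 6.89 and 6.02 in control siRNA untreated cells. The groups overlapped through replicate 4, which was the highest of the SRC1 siRNA untreated arrays and the lowest of both control siRNA groups. The difference between siRNAs was -0.51 in tamoxifen-treated cells and -0.61 in untreated cells. Between untreated arrays of the same number it was -1.13, -1.44, -0.88 and, for number 4, 1.0. Without the replicate 4 arrays the difference was -0.74 in tamoxifen-treated cells and -1.15 in untreated cells. The other SCN1A probe set, 1555246_a_at, lay between 2.04 and 3.18 on all arrays, below the median, with differences of 0.08 in tamoxifen-treated cells and -0.25 in untreated cells.

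SCN8A, an alpha subunit of the axon's initial segment and nodes, had 6 probe sets, of which 4 lay above the median of 3.47. Probe set 235969_at had 4.30 and 4.56 in SRC1 siRNA tamoxifen cells and 4.2 to 4.71 in SRC1 siRNA untreated cells, against 4.28 to 4.97 in control siRNA tamoxifen cells and 4.60 to 5.06 in control siRNA untreated cells. Probe set 207049_at ran from 3.90 to 4.50 and 244708_at from 4.00 to 4.42 over the 14 arrays. Both had overlapping ranges in the untreated groups. In tamoxifen-treated cells 207049_at did not overlap, at 4.33 and 4.28 with SRC1 siRNA against 3.99 to 4.19 with control siRNA, a difference of 0.19. Probe set 237790_at was the most variable, at 4.00 and 3.41 in SRC1 siRNA tamoxifen cells, 3.28, 3.57, 4.07 and 3.35 in SRC1 siRNA untreated cells, 3.35, 3.55, 3.17 and 2.91 in control siRNA tamoxifen cells and 3.59, 3.14, 3.26 and 4.15 in control siRNA untreated cells. Its difference of 0.46 between siRNAs in tamoxifen-treated cells was the highest of any member besides SCN3A, with overlapping groups. These 4 probe sets thus had signals near or above the median in all 4 groups.

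The other members had low signals throughout. The 12 member probe sets below the median ranged from 1.27 to 3.18 over all arrays, where the tenth percentile of all probe set means was 1.77, and SCN2A, SCN9A, SCN2B and SCN4B had no probe set above the median. SCN2A, the chromosomal neighbour of SCN3A, differed between siRNAs by 0.10 and 0.18 in tamoxifen-treated cells on its probe sets 206381_at and 229057_at. In untreated cells these differed by 0.03 and -0.02. SCN9A differed by -0.28 in tamoxifen-treated cells on 206950_at and by -0.49 on 229199_at, and by 0.10 and -0.09 in untreated cells. Probe set 229199_at had 1.47 and 1.76 in SRC1 siRNA tamoxifen cells, 2.29, 2.09, 2.13 and 2.03 in SRC1 siRNA untreated cells, 2.13, 1.89, 2.27 and 2.12 in control siRNA tamoxifen cells and 2.38, 2.39, 1.85 and 2.29 in control siRNA untreated cells. Both SRC1 siRNA tamoxifen arrays thus lay below all 12 others on SCN9A 229199_at. SCN2B 235225_at, a beta subunit that binds the alpha subunit covalently, had 1.65, 1.68, 1.68 and 1.73 in SRC1 siRNA untreated cells against 1.64, 1.60, 1.51 and 1.53 in control siRNA untreated cells. Its difference was 0.13 in tamoxifen-treated cells and 0.11 in untreated cells. The other SCN2B probe sets, 210363_s_at and 210364_at, differed by -0.20 and -0.14 in tamoxifen-treated cells and by -0.05 and 0.13 in untreated cells. SCN4B, the other covalently bound beta subunit, stayed between 1.49 and 1.88 on its only probe set.

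**Figure D2:**
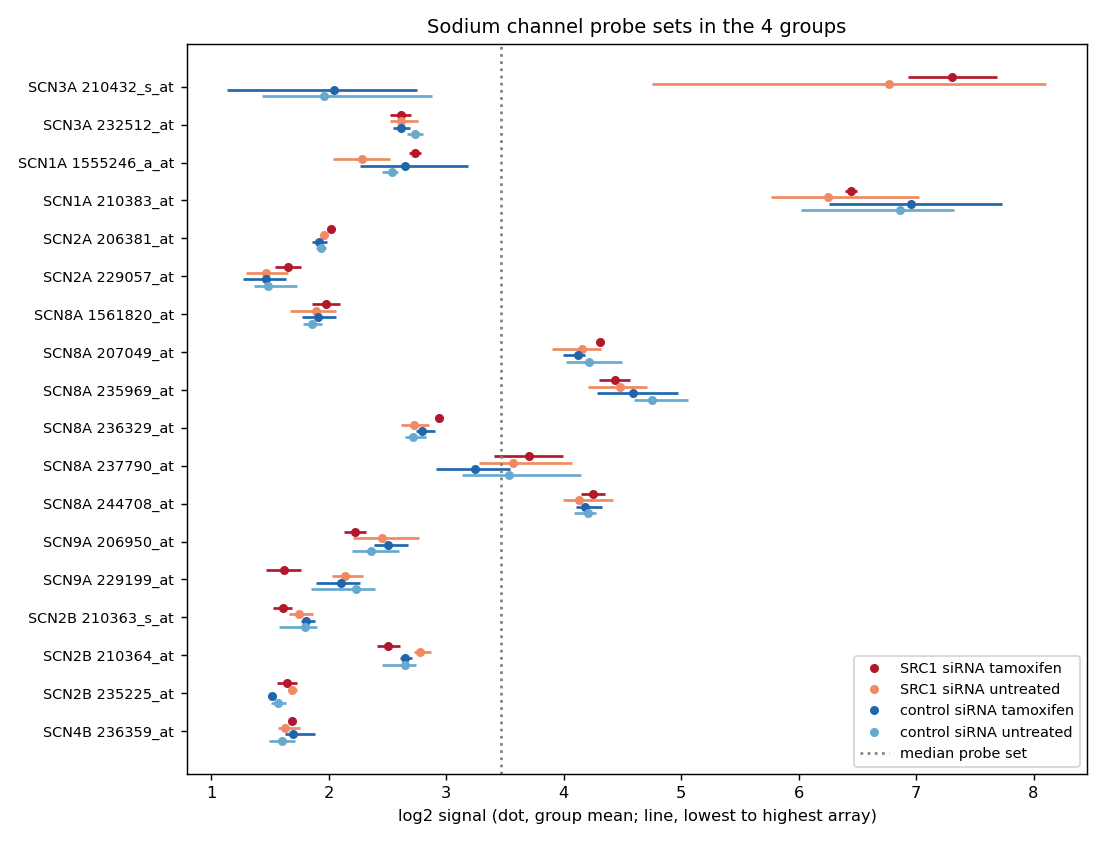
Log2 signal (horizontal axis) of the 18 sodium channel probe sets (rows); dots are group means, lines run from the lowest to the highest array of a group and the dotted line is the median probe set (3.47). SCN3A 210432_s_at is the row whose siRNA groups lie far apart, SCN1A 210383_at has the control siRNA means above the SRC1 siRNA means with overlapping lines, and the rows of SCN2A, SCN9A, SCN2B and SCN4B lie left of the median.

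Over the 17 member probe sets other than SCN3A 210432_s_at, the siRNA difference ranged from -0.51 to 0.46 in tamoxifen-treated cells and from -0.61 to 0.13 in untreated cells. Of these, 14 and 16 lay within 0.3 of 0. The median over all 18 was 0.0681 in tamoxifen-treated cells and -0.00754 in untreated cells, where that of all probe sets was -0.0236 and -0.00382. The groups did not overlap for 8 member probe sets in tamoxifen-treated cells and 2 in untreated cells, where 36% and 16.2% of all probe sets had no overlap. Since the members were selected on this contrast, nothing is read from these counts.

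None of the 18 member probe sets passed an adjusted p of 0.05 for tamoxifen in either siRNA background (limma), and this contrast was not used in selecting the genes. In SRC1 siRNA cells the 18 differences between tamoxifen and untreated ran from -0.52 to 0.53. Their adjusted p ran from 0.0933 to 0.999 (limma), where 1.51% of all probe sets passed the adjusted threshold. An unadjusted p below 0.05 (limma) was found for 4 of the 18. In the same contrast it was found for 16 of 68 probe sets of sodium channel partners and 14 of 66 of other voltage-gated cation channels, lists described below. In control siRNA cells the differences ran from -0.29 to 0.15 and the adjusted p from 0.381 to 0.988, where 0.163% of all probe sets passed the adjusted threshold. There 0 of 18 had an unadjusted p below 0.05. The interaction of siRNA and tamoxifen passed for 0 of 18 member probe sets (adjusted p of 0.235 to 0.953), where 0.28% of all probe sets passed the adjusted threshold. For the interaction 1 had an unadjusted p below 0.05. No share of all probe sets at an unadjusted p was taken, so nothing is read from the counts at that threshold. Groups did not overlap for 5 of 18 in SRC1 siRNA cells, where 24.4% of all probe sets had no overlap, and for 0 of 18 in control siRNA cells, where 8.86% had none.

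For SCN3A 210432_s_at, tamoxifen minus untreated was 0.53 ± 0.72 (SE) in SRC1 siRNA cells, with a 95% interval of -1.01 to 2.08 and an adjusted p of 0.763. It was 0.08 ± 0.59 in control siRNA cells, with an interval of -1.18 to 1.35 and an adjusted p of 0.964. The interaction was 0.45 ± 0.93, with an interval of -1.55 to 2.45 and an adjusted p of 0.838. Each of these intervals spans more than 2 log2 units and includes 0, so effects of tamoxifen on SCN3A within them are not excluded. Without replicate 4 of the SRC1 siRNA untreated group, the difference in SRC1 siRNA cells became -0.14 and the interaction -0.22, and neither passed. Between arrays of the same number, tamoxifen minus untreated was -0.43 and -0.18 in SRC1 siRNA cells and -0.29, 0.85, -0.09 and -0.13 in control siRNA cells.

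The lowest adjusted p among the members for tamoxifen belonged to SCN9A 229199_at in SRC1 siRNA cells, at -0.52 ± 0.15 and an adjusted p of 0.0933. It passed, with an adjusted p of 0.0416, once replicate 3 of the control siRNA untreated group was left out. The other 3 with an unadjusted p below 0.05 in these cells were SCN2B 210364_at (-0.26, adjusted p = 0.128), SCN8A 236329_at (0.21, adjusted p = 0.197) and SCN1A 1555246_a_at (0.45, adjusted p = 0.253). All 4 are probe sets below the median signal.

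A further 6 genes of sodium channels and their relatives were measured on 12 probe sets: the muscle channel SCN4A, the sensory neuron channels SCN10A and SCN11A, SCN7A, the beta subunit SCN3B and the sodium leak channel NALCN. All 12 lay below the median, between 1.35 and 2.35 over the arrays. With SRC1 siRNA against control siRNA, 5.76% of all probe sets passed an adjusted p of 0.05 as higher and 7.7% as lower in tamoxifen-treated cells, and 4.99% as higher and 5.36% as lower in untreated cells. Among the 12, in tamoxifen-treated cells, 1 was higher with SRC1 siRNA, SCN3B 204722_at, by 0.40 ± 0.07 (adjusted p = 0.00336). This probe set had 1.95 and 1.77 in SRC1 siRNA tamoxifen cells and 1.51, 1.44, 1.47 and 1.43 in control siRNA tamoxifen cells, against 1.42 to 1.56 in SRC1 siRNA untreated cells and 1.38 to 1.54 in control siRNA untreated cells. It was also higher with tamoxifen than without in SRC1 siRNA cells (0.39, adjusted p = 0.0192), although the interaction had an adjusted p of 0.0714. Both its high values are below the median signal, and without replicate 1 of the SRC1 siRNA tamoxifen group the siRNA difference no longer passed. In untreated cells 0 of the 12 passed, with 1 at an unadjusted p below 0.05.

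SCN3A lies in a run of sodium channel genes on chromosome 2 whose order, with the genes around it, is KCNH7, FIGN, GRB14, COBLL1, SLC38A11, SCN3A, SCN2A, CSRNP3, GALNT3, TTC21B, SCN1A, SCN9A, SCN7A, XIRP2, B3GALT1 and STK39. The difference seen for SCN3A was not shared along this stretch. Of the 26 probe sets of the 10 neighbours measured that are not sodium channels, 10 lay above the median signal. None of the 26 (0) passed as higher with SRC1 siRNA in either treatment. Over all probe sets, 5.76% passed as higher and 7.7% as lower in tamoxifen-treated cells, and 4.99% and 5.36% in untreated cells. With 26 probe sets, nothing is read from the counts of neighbours that passed. In tamoxifen-treated cells 3 passed as lower with SRC1 siRNA: STK39, a kinase that regulates ion cotransporters (-0.67, adjusted p = 0.00557), GALNT3, which starts mucin-type glycosylation (-0.53, adjusted p = 0.00353), and the potassium channel KCNH7 (-0.33, adjusted p = 0.0171). KCNH7 1555316_a_at had means of 1.87 with SRC1 siRNA and 2.20 with control siRNA there, both below the median signal, and of 2.11 and 2.00 in untreated cells. In untreated cells 2 passed as lower, with differences of -0.81 ± 0.22 for GRB14, an adaptor that inhibits the insulin receptor (adjusted p = 0.0301), and of -0.57 ± 0.10 for STK39 (adjusted p = 0.0043). Once replicate number was included as a block, GRB14 (adjusted p = 0.0883) and KCNH7 (adjusted p = 0.12) missed the threshold. TTC21B was not analysed here, and the genes directly beside SCN3A, SLC38A11 and SCN2A, had all their probe sets below the median signal.

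**Figure D3:**
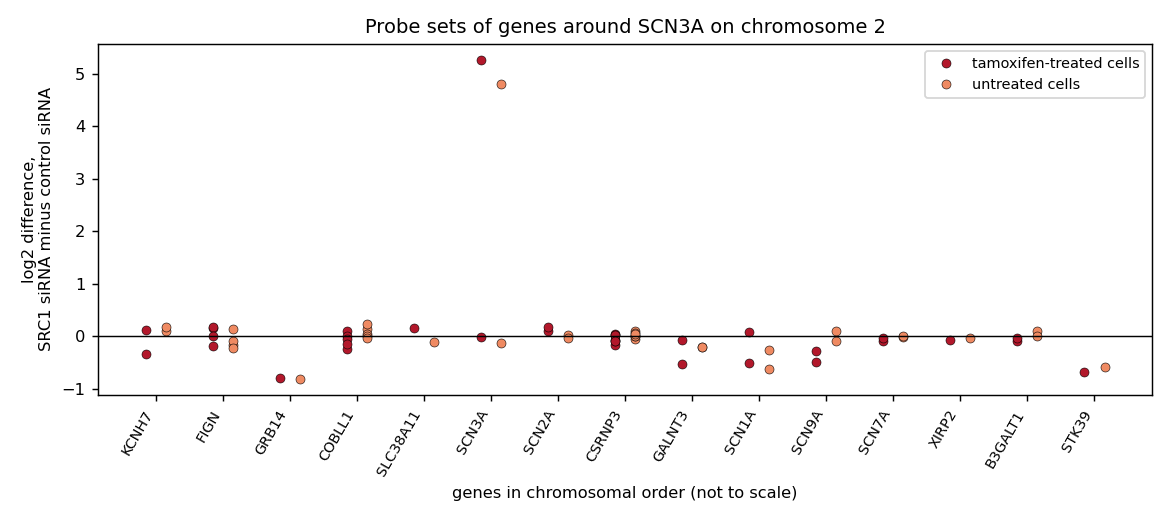
Difference of log2 signal, SRC1 siRNA minus control siRNA (vertical axis), for every probe set of SCN3A and its neighbours in their order along chromosome 2 (horizontal axis, not to scale), in tamoxifen-treated and untreated cells. SCN3A 210432_s_at lies at 5.26 and 4.81, and GRB14 and STK39 lie lowest, down to -0.81.

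Between SRC1 siRNA and control siRNA, proteins that bind or regulate sodium channels moved mostly by less than 1 log2 unit, in both directions. Of 68 probe sets of 19 partner genes, 2 rose and 5 fell in tamoxifen-treated cells, and 2 rose and 6 fell in untreated cells. FGF12, an intracellular factor that binds the tail of the alpha subunit, fell in untreated cells on 238521_at (-0.31, adjusted p = 0.00713) and on 214589_at (-0.36), and in tamoxifen-treated cells on 238521_at (-0.51, adjusted p = 0.00165). NEDD4L, a ubiquitin ligase that takes sodium channels from the membrane, had differences of -0.62 on 226974_at and -0.44 on 212448_at in untreated cells, both past the threshold. The group means of NEDD4L 226974_at, at 2.46 to 3.31, lay below the median signal. The adhesion protein NRCAM and the anchor ANK3, which hold channels at the initial segment, differed by -0.24 and -0.19 in untreated cells, each on 1 probe set that passed. ANK2 rose by 0.46 on 202920_at and SPTBN4, the spectrin of the initial segment, by 0.22 on 220185_at in untreated cells. The other probe sets of both genes differed by less there. SPTBN4 220185_at went the other way in tamoxifen-treated cells, with means of 2.26 with SRC1 siRNA and 2.45 with control siRNA. SPTBN4 224144_at was instead higher with SRC1 siRNA in tamoxifen-treated cells, at 2.81 against 2.44, and had 2.38 and 2.39 in untreated cells. The means of both SPTBN4 probe sets lay below the median signal in all groups.

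Between the same siRNAs, among other voltage-gated cation channels, 2 of 66 probe sets rose and 2 fell in tamoxifen-treated cells, and 3 rose and 5 fell in untreated cells. The potassium channel KCND3 fell in both, with differences on 213832_at of -1.06 ± 0.12 in tamoxifen-treated cells (adjusted p = 0.000724) and -0.84 ± 0.10 in untreated cells, and on 215014_at of -0.86 and -0.65. The calcium channel CACNA1D fell in untreated cells on 1555993_at (-0.43, adjusted p = 0.005), and CACNA1C rose on 211592_s_at by 0.47 in tamoxifen-treated cells and 0.40 in untreated cells. The group means of CACNA1C 211592_s_at, at 2.79 to 3.25, lay below the median signal. In tamoxifen-treated cells, its means with SRC1 siRNA and control siRNA were 3.40 and 3.47 on 208020_s_at, 1.81 and 1.97 on 238636_at and 2.24 and 2.05 on 242973_at. Of 30 probe sets of sodium pumps, exchangers and epithelial sodium channels, 0 rose and 1 fell in tamoxifen-treated cells (SLC8A3), and 1 rose (SLC8A2) and 1 fell (ATP1B2) in untreated cells. All probe sets of SLC8A3, SLC8A2 and ATP1B2 had group means below the median signal. Shares over all probe sets are those given above for the same contrasts.

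REST is known to hold sodium channel and other neuronal genes silent outside the nervous system. Its 3 probe sets differed between siRNAs by -0.08 to 0.05 in tamoxifen-treated cells and by -0.03 to 0.17 in untreated cells, with lowest adjusted p of 0.598 and 0.288. With SRC1 siRNA, of 30 probe sets of REST and its corepressors, 3 rose and 5 fell in tamoxifen-treated cells, and 0 rose and 1 fell (HDAC1, -0.17) in untreated cells. In tamoxifen-treated cells, means with SRC1 siRNA and control siRNA were 4.67 and 4.09 for SIN3A 238189_at and 7.84 and 7.30 for SIN3B 39705_at. They were 7.82 and 8.32 for RCOR3 218344_s_at, 9.93 and 10.3 for KDM1A and 12.4 and 12.7 for HDAC2 201833_at. Other probe sets went the other way, with 6.46 and 6.02 for RCOR3 241433_at and 11.18 and 11.25 for SIN3A 238005_s_at. Of all probe sets, 5.76% rose and 7.7% fell past the threshold in tamoxifen-treated cells, and 4.99% rose and 5.36% fell in untreated cells. Of 35 probe sets of 19 neuronal genes that REST represses, 2 rose and 1 fell in tamoxifen-treated cells and 3 rose and 0 fell in untreated cells. The risers were CHGA, a secretory granule protein (0.75 in tamoxifen-treated cells and 0.92 in untreated cells), and the synaptic vesicle calcium sensor SYT1 (on 203999_at, 0.39 and 0.45). BDNF, a growth factor of neurons, fell with SRC1 siRNA in tamoxifen-treated cells (-0.28). Its probe set 206382_s_at had means of 1.80 with SRC1 siRNA and 2.08 with control siRNA there, and of 1.92 and 1.91 in untreated cells. The group means of CHGA, at 2.47 to 3.39, and of BDNF all lay below the median signal. The other 16 genes of this list had no probe set that passed in either treatment.

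The interferon response differed between the same groups. Its 16 genes, at their brightest probe sets, had a mean log2 signal of 11.0 to 11.7 in SRC1 siRNA tamoxifen cells and 11.0 to 12.8 in SRC1 siRNA untreated cells, against 8.47 to 10.2 in control siRNA tamoxifen cells and 8.20 to 10.0 in control siRNA untreated cells. Of its 26 probe sets, with SRC1 siRNA against control siRNA, 13 rose in tamoxifen-treated cells and 16 in untreated cells, and 0 fell. The shares of all probe sets that rose were 5.76% and 4.99%. Between arrays of the same number, IFNB1 differed in untreated cells by 6.45, 2.67, 1.76 and 5.04, for numbers 1 to 4, and IFIT1 by 0.50, 0.13, 0.04 and 5.77. Number 4 thus had the narrowest SCN3A gap and the widest IFIT1 gap. IFNB1 and CCL5 had their widest gap at number 1, as SCN3A had. CCL5 differed in untreated cells by 6.45, 4.15, 3.86 and 4.66 on 204655_at and by 6.89, 4.13, 3.86 and 4.31 on 1405_i_at. On CCL5 1555759_a_at the gaps were 7.10, 5.37, 4.09 and 2.91, narrowest at number 4. The part of the interferon response in the SCN3A difference was not tested.

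**Figure D4:**
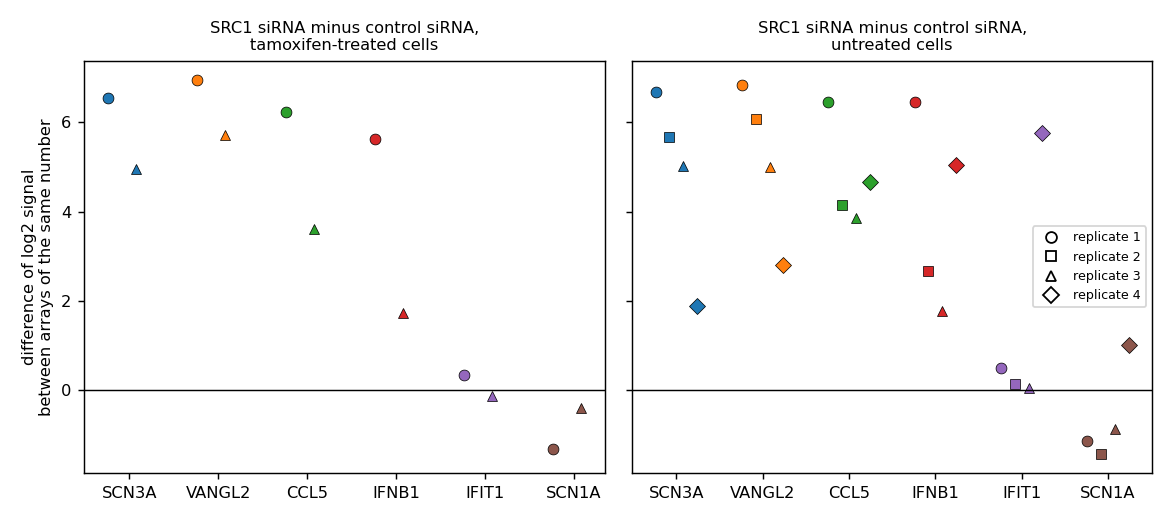
Difference of log2 signal, SRC1 siRNA minus control siRNA, between arrays of the same replicate number (vertical axis), for 6 genes (horizontal axis), in tamoxifen-treated cells (left) and untreated cells (right), with a marker shape for each number. SCN3A and VANGL2 share the order of the numbers, with number 1 widest and number 4 narrowest (6.68 to 1.87 for SCN3A in untreated cells), while IFIT1 has its widest difference at number 4 (5.77) and SCN1A changes sign there (1.0). IFNB1 and CCL5 have their widest difference at number 1 (6.45 for each in untreated cells).

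The genes whose profile was most like that of SCN3A were found among 12263 genes. Each was taken at its brightest probe set, with a mean over all 14 arrays above the median signal. A gene could thus enter through the SRC1 siRNA arrays alone, as GZMA did, with 1.71 to 2.92 on the control siRNA arrays. Over the 14 arrays the 5 with the highest Pearson r were VANGL2 (0.995), OTUD1 (0.995), PDE4DIP (0.994), GZMA (0.994) and SYNM (0.994). VANGL2 is a planar cell polarity protein, OTUD1 a deubiquitinase, PDE4DIP an anchor of centrosome and Golgi, GZMA a serine protease and SYNM an intermediate filament protein. The arrays fall into SRC1 siRNA and control siRNA clusters, so any gene that differs widely between siRNAs scores high: 316 genes had r above 0.9 and 274 below -0.9. Within the 6 SRC1 siRNA arrays the 5 highest were WFDC21P (0.993), CEACAM5 (0.992), RGS2 (0.991), EGR4 (0.991) and VANGL2 (0.99). SCN3A had 4.75 on untreated replicate 4 and 6.93 to 8.11 on the others, so an r over these 6 arrays can rest largely on that array. No r was computed without it. VANGL2 was the gene in both lists, and its r was 0.939 over the 8 control siRNA arrays. On those arrays SCN3A lay between 1.14 and 2.88, below the median signal, and VANGL2 between 2.72 and 4.21. These coefficients are a description of few arrays that share their siRNA and replicate number, and carry no test.

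**Figure D5:**
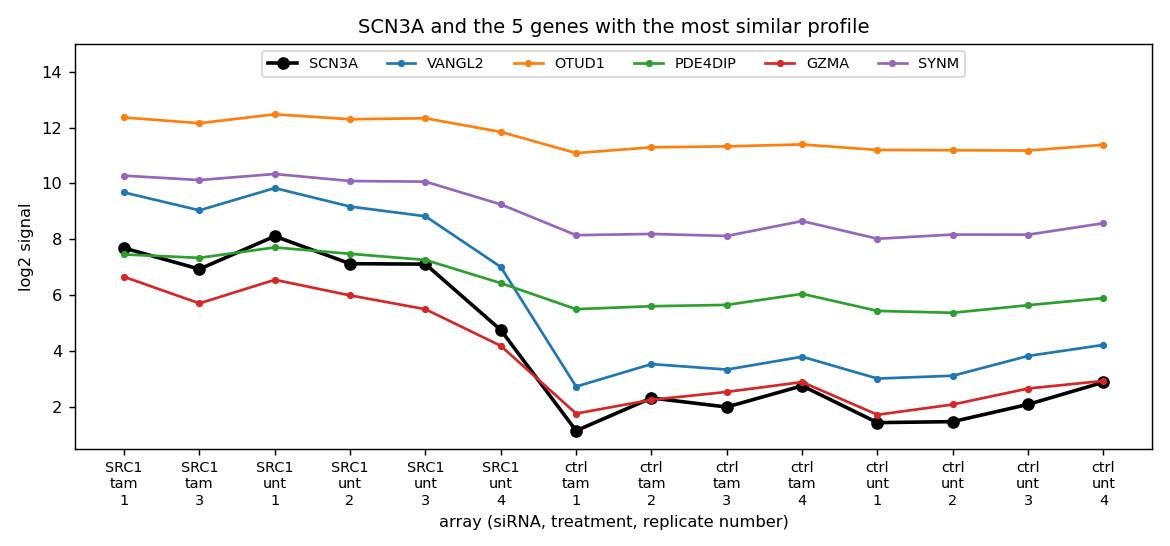
Log2 signal (vertical axis) of SCN3A 210432_s_at and of the 5 genes with the highest r over 14 arrays, on each array (horizontal axis, siRNA, treatment and replicate number; tam, tamoxifen; unt, untreated; ctrl, control siRNA). All 6 lines are higher on the 6 SRC1 siRNA arrays and dip at SRC1 siRNA untreated replicate 4, where SCN3A is at 4.75; heights of different probe sets are not comparable.

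VANGL2 followed SCN3A closely. It had 9.68 and 9.04 in SRC1 siRNA tamoxifen cells and 9.84, 9.17, 8.82 and 7.01 in SRC1 siRNA untreated cells, against 2.72, 3.53, 3.33 and 3.79 in control siRNA tamoxifen cells and 3.01, 3.11, 3.82 and 4.21 in control siRNA untreated cells. In both siRNA backgrounds number 4 was nearest to the other siRNA, as for SCN3A. Its differences between untreated arrays of the same number were 6.83, 6.06, 5.01 and 2.79. Over the 6 SRC1 siRNA arrays SCN3A had r of -0.958 with GRB14 and -0.707 with SCN1A 210383_at. Like every r over these 6 arrays given here, these can rest largely on untreated replicate 4. Interferon list genes went both ways over these arrays, with r of -0.904 for IFIT1 and 0.111 for IFNB1. For the CCL5 probe sets r was 0.755, 0.911 and 0.635. Over all 14 arrays r was 0.244 for IFIT1, 0.868 for IFNB1 and 0.955 to 0.984 for CCL5. With the 4 NCOA1 probe sets SCN3A had r of -0.935 to -0.857 over 14 arrays, and of -0.392 to 0.164 over the 6 SRC1 siRNA arrays.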

How the data were processed

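RNA of LY2 cells was measured on 14 arrays, after amplification by NuGEN Ovation and biotin labelling, per the labels' protocols. The authors deposited log2 signals, 1 value for each probe set on each array. The log base was inferred from the range (0.91 to 15.5). The submitters' processing notes name R 2.9.2, while background correction, normalization and summary were not given in the sources used here. No value column was left unused (0). The labels call the replicates biological and say nothing of separate cultures, so p-values measure the spread between these arrays.

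Of 54675 probe sets, 62 array controls were left out. Of the 54613 tested, 41091 carried 1 symbol, 1801 several and 11721 none. The means of the 4 groups over all 14 arrays were fitted with limma 3.58.1 in R 4.3.3, and p was adjusted by Benjamini-Hochberg over all 54613, two-sided, with a threshold of 0.05. The code was tested on simulated data. Percentages of all probe sets come from the same fit. The number of arrays limits the precision.

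The members, gene lists and tests were chosen with earlier results of these data known. Named genes were all members, NCOA1, every other sodium channel subunit, and the 5 genes with the highest r with SCN3A over 14 and over 6 arrays. List genes that passed were named up to 6 a list, and not all of them in every list. IFIT1, IFNB1 and CCL5 are interferon list genes, and the luminal markers named were chosen as examples. Replicate numbers were not taken as pairs. Alternatives were quantile normalization, median centring, a filter on the median signal, the number as a block, fits of the arrays compared, trend and robust eBayes, array weights, and leaving out each array. Leaving out all replicate 4 arrays and averaging both SCN3A probe sets were added after seeing the data.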

Additional observations from a re-analysis of the deposited data

Results flagged for a closer look

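In 66 groups of 4 arrays, those of the member and NCOA1 probe sets, 3 arrays stood apart from the other 3 of their group by more than the 95% critical value of Dixon's test, where chance gives about 5% of groups. All 3 were on member probe sets. SCN8A 244708_at was at 4.42 on SRC1 siRNA untreated replicate 4, against 4.06 on the nearest array of the group. SCN4B 236359_at was at 1.75 on SRC1 siRNA untreated replicate 1, against 1.59 on the nearest. SCN4B 236359_at was at 1.88 on control siRNA tamoxifen replicate 3, against 1.65 on the nearest. The SCN4B values are at the low end of the signal range.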

How the results depend on the processing

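Under the alternatives, 237 values were close to the reported one or on the same side of the threshold, and 5 were not. The 5 concern the choice of SCN3A probe set and single arrays. With the mean of both SCN3A probe sets the siRNA difference was 2.63 in tamoxifen-treated cells and 2.34 in untreated cells, since the dimmer probe set did not differ. Leaving out 1 array at a time, the difference of the brighter one ranged from 4.88 to 5.64 in tamoxifen-treated cells and from 4.37 to 5.49 in untreated cells. Tamoxifen minus untreated ranged from -0.14 to 0.98 for SCN3A in SRC1 siRNA cells, and the interaction from -0.22 to 0.90, with no adjusted p below 0.523. The count of members changed by tamoxifen in SRC1 siRNA cells ranged from 0 to 1, with SCN9A passing without control siRNA untreated replicate 3. The count of other subunits higher with SRC1 siRNA and tamoxifen ranged from 0 to 1, with SCN3B lost without SRC1 siRNA tamoxifen replicate 1. NCOA1 ranged from -1.5 to -1.15 in tamoxifen-treated cells, where the highest adjusted p rose to 0.0555 without SRC1 siRNA tamoxifen replicate 3, and from -1.40 to -1.16 in untreated cells. The filter on low values left none of the other subunits. Where 1 array of the SRC1 siRNA tamoxifen group remained, its spread was taken to equal that of the other groups. The cause of these shifts was not tested.

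After removing group means, arrays of the same replicate number correlated at -0.585 to -0.0421 over 18 pairs, all below 0, with a median of -0.334. Same-numbered arrays thus deviated in opposite directions, and this check cannot tell whether the numbers pair the samples. Whether differences between the numbers were taken out before deposit was not tested. If they were, p-values of the fit without the number are too small, and those with it are the stricter ones. With the replicate number as a block, SCN3A differed by 5.21 in tamoxifen-treated cells and 4.81 in untreated cells, and its tamoxifen effect in SRC1 siRNA cells was 0.49 (adjusted p = 0.917). Calls over all probe sets fell to 1224 with the block, against 7350, for the siRNA difference in tamoxifen-treated cells, and to 2154, against 5653, in untreated cells. For tamoxifen they fell to 0, against 824, in SRC1 siRNA cells and to 1, against 89, in control siRNA cells, and for the interaction to 0, against 153. Partner calls became 0 higher and 1 lower in tamoxifen-treated cells and 0 higher and 3 lower in untreated cells, and those of other voltage-gated channels likewise 0 and 1, and 0 and 3. Calls of neuronal genes repressed by REST became 0 and 3, those of REST and its corepressors 0 and 0, and interferon calls 8 and 13. Neighbours of SCN3A that passed became 2 lower (STK39 and GALNT3) in tamoxifen-treated cells and 1 lower (STK39) in untreated cells. STK39 had an adjusted p of 0.0491 in tamoxifen-treated cells and 0.0269 in untreated cells, and SCN3B 204722_at one of 0.0442. The tamoxifen effect on SCN3B in SRC1 siRNA cells had an adjusted p of 0.203 with the block.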
